A study of Homo sapiens with 4 samples.

Results

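The genes described here are 7 transcription factors of the endoderm, GATA4, GATA6, SOX17, FOXA1, FOXA2, HNF4A and HHEX, taken by symbol from the 26364 genes of the count tables. They were followed in messenger RNA of NTERA2 cells in which sh60 libraries (replicates 1 and 2) were set against LacZ libraries (replicates 1 and 3). NTERA2 is a human embryonal carcinoma line, and a single clone grown in high-glucose medium with serum is given for all 4 libraries. The labels call the groups BEND3 sh60 and BEND3 LacZ. The sh60 group is read as a hairpin against BEND3, a chromatin-bound repressor, and LacZ as its control, although neither reading is spelled out. The series title asks whether BEND3 keeps differentiation genes repressed in pluripotent cells. Nothing in the labels places the replicates in separate cultures, so p-values measure only the spread between these libraries, which may be technical.

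Endoderm forms when mesendoderm cells receive strong NODAL signals, and it later gives rise to the gut, liver, pancreas and lung. GATA factors and SOX17 act early in that step, the FOXA proteins are forkhead factors that open closed chromatin, and HNF4A and HHEX work in the liver and foregut that follow. In the mouse embryo GATA6 and GATA4 also specify the primitive endoderm, the yolk sac lineage that is set aside before gastrulation.

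The line expressed the genes of the pluripotent state. POU5F1 lay between 910.1 and 1016 CPM in the sh60 libraries and between 934.5 and 955.4 CPM in the LacZ libraries. It did not pass (log2 fold change 0.03, edgeR adjusted p = 0.835). The POU5F1 entry covers more than 1 reference sequence, so its count is uncertain. CPM, the usual unit of abundance, is a gene's count relative to the TMM-scaled total of its library. The labels describe the cells as ES-derived and as a lung carcinoma line. NKX2-1, a defining factor of lung endoderm, had 0 counts in both sh60 libraries and 1 and 0 counts in LacZ replicates 1 and 3. The origin of the cells was not tested. Of 12 listed genes of the pluripotent state 5 were called lower and 1 higher, beside 13.0% lower and 15.8% higher over all tested genes. Among those called, DNMT3B, TDGF1 and LIN28B fell (log2 fold changes -0.72, -0.49 and -0.45) and SOX2 rose (0.31). How many were called depended on which libraries were used. Library totals lay between 30338285 and 44788461 counts, so that 1 count was worth between 0.0221 and 0.0333 CPM. BEND3 (chromosome 6, 107386385 to 107435636, hg19) measured 53.8 ± 2.63 CPM in sh60 libraries and 74.1 ± 7.43 CPM in LacZ libraries (SD, n = 2 each), a log2 fold change of -0.46 (SE 0.0982, edgeR adjusted p = 0.00168). BEND3 no longer passed when LacZ replicate 3 was left out (log2 fold change -0.36, edgeR adjusted p = 0.154). Among markers of other cell types, the 8 blood genes summed to between 2.41 and 2.76 CPM in sh60 libraries and between 2.10 and 2.47 CPM in LacZ libraries, with PTPRC and HBB at 0 in all libraries and neither of the 2 tested, LCP1 and CD34, passing. The 8 fibroblast genes summed to between 906.9 and 1070 CPM in sh60 libraries and between 422.5 and 518.9 CPM in LacZ libraries. COL1A1 was the largest part in sh60 libraries, with 553.7 and 684.0 CPM, and THY1 in LacZ libraries, with 232.8 and 229.9 CPM. Of the 8, 3 rose, 1 fell and 3 did not pass, beside 15.8% higher and 13.0% lower over all tested genes. FAP, a defining gene of activated fibroblasts, was not tested and had 6 and 7 counts in sh60 libraries and 4 and 2 counts in LacZ libraries. Fewer cells of a type and less RNA per cell cannot be told apart in such bulk libraries, and the part of other cell types in the results was not tested.

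Promoter windows from RefSeq (GRCh38.p14) were found for 4 of the 7 genes. The 250 bases before the start are shown for GATA6, the most abundant of the 7, for GATA6-AS1, a noncoding RNA read from the opposite strand beside it that moved in the same direction, and for HHEX and HNF4A, which were close to silent. Capitals mark each CG dinucleotide, the site of DNA methylation.
GATA6: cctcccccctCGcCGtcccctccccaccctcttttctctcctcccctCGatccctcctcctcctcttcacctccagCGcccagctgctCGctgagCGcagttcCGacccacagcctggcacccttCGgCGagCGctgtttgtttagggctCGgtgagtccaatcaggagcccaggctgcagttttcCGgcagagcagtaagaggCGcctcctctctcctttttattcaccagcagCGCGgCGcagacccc
GATA6-AS1: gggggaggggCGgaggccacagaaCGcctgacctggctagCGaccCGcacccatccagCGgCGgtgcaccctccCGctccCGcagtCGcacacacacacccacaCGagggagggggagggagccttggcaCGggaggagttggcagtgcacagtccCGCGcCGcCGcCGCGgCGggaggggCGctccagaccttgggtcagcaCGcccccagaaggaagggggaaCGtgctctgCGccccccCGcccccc
HHEX: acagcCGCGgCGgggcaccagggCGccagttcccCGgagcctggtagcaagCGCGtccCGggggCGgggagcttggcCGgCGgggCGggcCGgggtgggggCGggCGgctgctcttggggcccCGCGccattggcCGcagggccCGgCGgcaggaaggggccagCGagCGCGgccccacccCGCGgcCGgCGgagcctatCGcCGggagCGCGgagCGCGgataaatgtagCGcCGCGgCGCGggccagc
HNF4A: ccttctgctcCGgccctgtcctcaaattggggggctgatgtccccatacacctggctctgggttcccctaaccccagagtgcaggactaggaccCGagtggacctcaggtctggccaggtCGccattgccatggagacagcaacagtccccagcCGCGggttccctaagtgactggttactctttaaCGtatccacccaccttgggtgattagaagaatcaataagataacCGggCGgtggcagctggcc
The windows lie at chr18:22169339-22169588 on the plus strand for GATA6, chr18:22168969-22169218 on the minus strand for GATA6-AS1, chr10:92689705-92689954 on the plus strand for HHEX and chr20:44355449-44355698 on the plus strand for the first of 2 HNF4A starts. They hold 16 CG dinucleotides for GATA6, 23 for GATA6-AS1, 38 for HHEX and 8 for HNF4A, against a median of 11 over all 35116 windows of that length. The share of windows with fewer was 59.0% for GATA6, 74.2% for GATA6-AS1, 96.7% for HHEX and 43.7% for HNF4A. The densest and the sparsest of these windows belong to HHEX and HNF4A, both near silent. Whether CG content goes with level was not tested. The letters AGATAA, a form of the sequence that GATA factors bind, or their reverse complement TTATCT occur in 9.17% of all windows and, of the 4 shown, in that of HNF4A alone. The windows of the second HNF4A start and of FOXA1, not shown, hold 8 and 26 CG dinucleotides and lack these letters.

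GATA6 and GATA4 fell in the sh60 libraries, to 0.572 and 0.584 of the LacZ level, and they were the only 2 of the 7 factors that passed the test. SOX17 and FOXA2 were tested and did not pass, and FOXA1, HNF4A and HHEX had too few counts to be tested. Of all 16040 tested genes 28.8% passed, 13.0% as lower and 15.8% as higher in sh60. With GC and length trends removed the calls over all genes were 2817 higher and 3602 lower, against 2540 and 2084 in the fit reported here. None of the 7 was called higher by edgeR's quasi-likelihood test, with 0 higher at an unadjusted p of 0.05 and 0 called higher by DESeq2 or limma-voom. The 2 called factors were called lower under each of the 13 alternatives run.

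**Figure D1:**
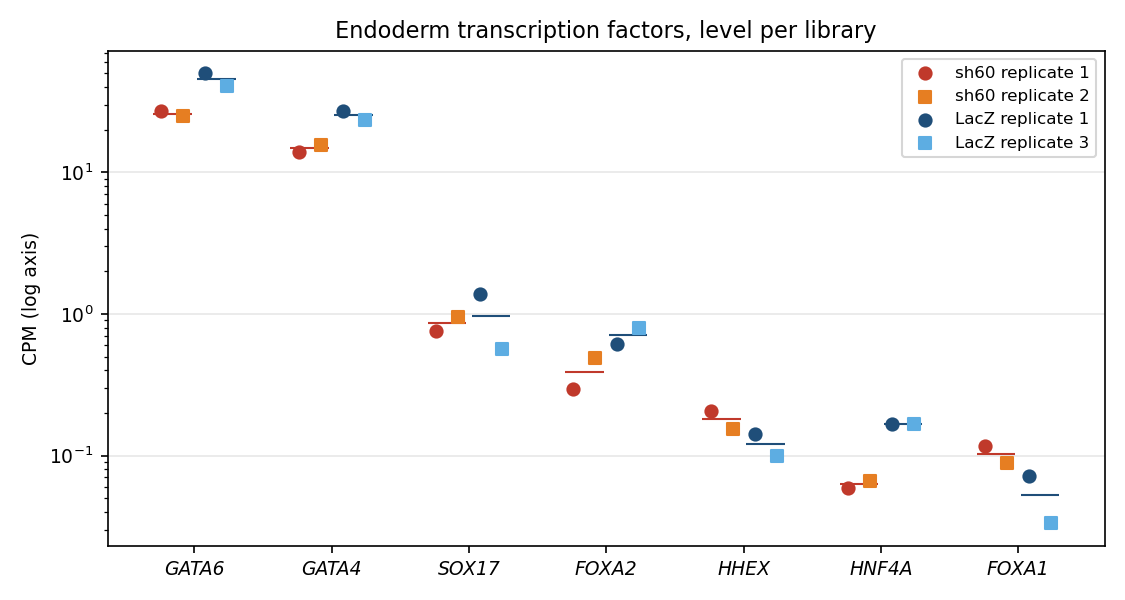
CPM (log axis) of the 7 endoderm factors in each library, with a point per library and a line at each group's mean; sh60 is drawn left of LacZ for each gene. GATA6 and GATA4 lie between 13.8 and 50.1 CPM with both sh60 libraries below both LacZ libraries, and the other 5 factors lie at 1.38 CPM or lower.

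GATA6 (chromosome 18, 19749398 to 19782491, hg19, plus strand), a zinc finger factor of primitive endoderm, heart and gut, was the most abundant of the 7. It measured 27.0 and 24.9 CPM in sh60 replicates 1 and 2, against 50.1 and 40.5 CPM in LacZ replicates 1 and 3. Both sh60 libraries lay below both LacZ libraries, and the gap between the groups was wider than the spread within either of them. The log2 fold change was -0.81 (SE 0.113, edgeR adjusted p = 3.46e-05), with a 95% confidence interval of -1.04 to -0.57. Only 4.18% of tested genes had a lower log2 fold change. Leaving out 1 library at a time gave values between -0.95 and -0.64, the smallest fall being without LacZ replicate 1, which had the highest level.

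GATA4 (chromosome 8, 11534428 to 11617511, plus strand), the related zinc finger factor that acts with GATA6 in heart and endoderm, measured 13.8 and 15.7 CPM in sh60 replicates 1 and 2 and 27.1 and 23.5 CPM in LacZ replicates 1 and 3. The groups did not overlap. The log2 fold change was -0.78 (SE 0.119, edgeR adjusted p = 8.33e-05), with a 95% confidence interval of -1.03 to -0.53 that covers most of the interval of GATA6. Within a library, which needs no scaling between libraries, GATA6 had 2.01 and 1.64 times the counts per length of GATA4 in sh60 replicates 1 and 2, and 1.90 and 1.78 times in LacZ replicates 1 and 3. These ratios overlapped between the groups, so the balance of the pair did not differ beyond the spread of the libraries. GATA4 and GATA6 made up between 95.9% and 96.6% of the counts of the 7 factors in sh60 libraries, and between 97.0% and 97.5% in LacZ libraries.

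SOX17 (chromosome 8, 55370495 to 55373456), an HMG-box factor that marks definitive endoderm and, in human, primordial germ cells, had 26 and 43 counts in sh60 replicates 1 and 2, against 58 and 17 counts in LacZ replicates 1 and 3. These are 0.764 and 0.950 CPM in sh60 libraries and 1.38 and 0.566 CPM in LacZ libraries. Both sh60 values fell between those of the LacZ libraries, which differed from each other by 1.28 on the log2 scale. The log2 fold change of -0.23 (SE 0.360, edgeR adjusted p = 0.684) did not pass, and its 95% confidence interval of -0.99 to 0.53 leaves room for a change of either sign. Without LacZ replicate 1 the sign turned, with a log2 fold change of 0.61 (edgeR adjusted p = 0.431).

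FOXA2 (chromosome 20, 22561642 to 22566101, minus strand), a forkhead factor of endoderm, node and floor plate, had 10 and 22 counts in sh60 replicates 1 and 2, against 26 and 24 counts in LacZ replicates 1 and 3. Scaled to the libraries these were 0.294 and 0.486 CPM in sh60 libraries and 0.617 and 0.798 CPM in LacZ libraries, with no overlap. Its log2 fold change of -0.80 was close to those of the GATA pair, but at this depth its error was larger (SE 0.398, edgeR adjusted p = 0.148; 95% confidence interval -1.63 to 0.04), so a difference was not detectable. Beside FOXA2, LINC00261, a long noncoding RNA annotated on the same strand with its start 2361 bases beyond the end of FOXA2, had 9 and 3 counts in sh60 libraries and 7 and 5 counts in LacZ libraries and was not tested.

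The other 3 factors were close to silent. HHEX (chromosome 10, 94449681 to 94455408), a homeobox factor of anterior endoderm and liver, had 7 and 7 counts in sh60 libraries and 6 and 3 counts in LacZ libraries. FOXA1 (chromosome 14, 38058757 to 38064325), the second forkhead factor, had 4 and 4 counts in sh60 libraries and 3 and 1 counts in LacZ libraries. HNF4A (chromosome 20, 42984441 to 43061485), a nuclear receptor of liver and gut, had 2 and 3 counts in sh60 libraries and 7 and 5 counts in LacZ libraries. A count of 3 stands for 0.0663 to 0.0998 CPM in these libraries, so several of these values sit at or under the limit that a count of 0 allows. The ratio of the summed rates in sh60 over LacZ was 1.42 for HHEX (95% interval 0.571 to 3.71), 1.82 for FOXA1 (0.488 to 8.26) and 0.379 for HNF4A (0.105 to 1.16), from exact intervals that cover counting error only. Each interval spans 1, and no difference was detectable at this depth. In 6 of the 7 genes the groups did not overlap, in 4 with sh60 below LacZ and in HHEX and FOXA1 with sh60 above. Over all tested genes 64.4% did not overlap and 32.3% had both sh60 libraries below both LacZ libraries, so absence of overlap alone sets none of the 7 apart.

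Per length, as RPKM (CPM per kilobase of exon), the factors fell into 3 tiers. GATA6 was highest with 7.16 and 6.60 RPKM in sh60 libraries and 13.3 and 10.7 RPKM in LacZ libraries, and GATA4 followed with 3.56 and 4.03 RPKM in sh60 libraries and 6.97 and 6.04 RPKM in LacZ libraries. Their ranges did not overlap within either group. SOX17 came next with 0.325 and 0.404 RPKM in sh60 libraries and 0.586 and 0.241 RPKM in LacZ libraries, and FOXA2 had 0.112 and 0.186 RPKM in sh60 libraries and 0.236 and 0.306 RPKM in LacZ libraries. SOX17 and FOXA2 overlapped in the LacZ group, so their order there is not settled. HHEX had 0.117 and 0.0879 RPKM in sh60 libraries, overlapping FOXA2, and 0.0810 and 0.0567 RPKM in LacZ libraries. FOXA1 and HNF4A stayed under 0.04 RPKM in each library. Among tested genes, 33.3% had a higher mean RPKM than GATA6 in the LacZ libraries, 46.8% a higher one than GATA4 and 85.6% a higher one than SOX17.

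**Figure D2:**
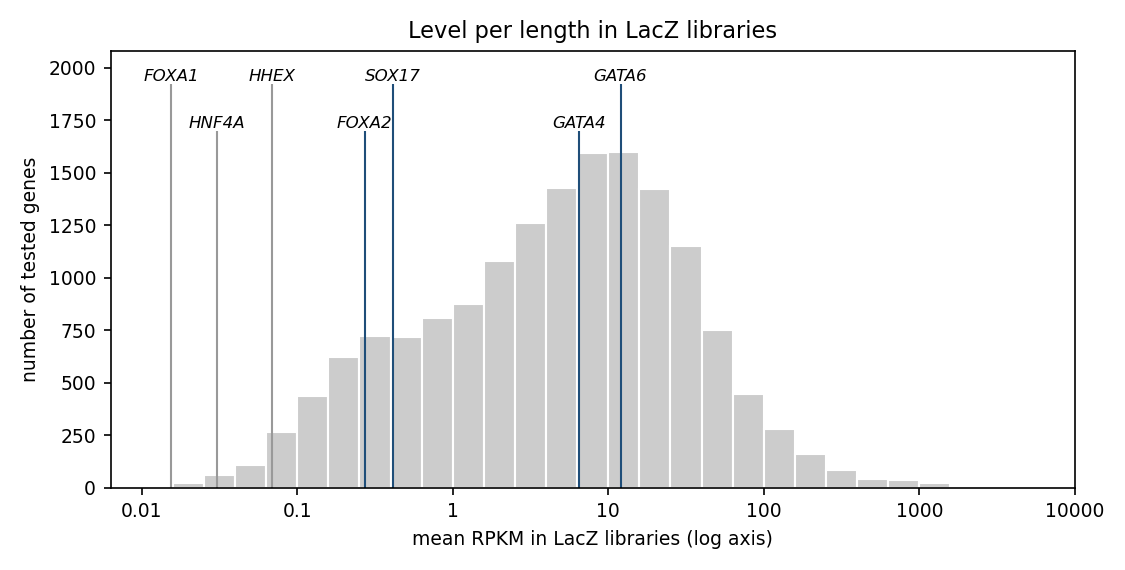
Histogram of mean RPKM in the LacZ libraries (log axis) over the 16040 tested genes, with a vertical line at each endoderm factor; grey lines mark the 3 factors that were not tested. GATA6 and GATA4 stand in the bulk of tested genes at 12.0 and 6.51 RPKM, and FOXA1, HNF4A and HHEX lie at its lower edge, below 0.07 RPKM.

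Close relatives of the 7 did not move as a block. SOX7 and SOX18, which with SOX17 form the SOXF group of vascular and endoderm factors, went opposite ways. SOX7 rose, with 8.05 and 10.2 CPM in sh60 libraries and 3.97 and 3.36 CPM in LacZ libraries (log2 fold change 1.31, SE 0.168, edgeR adjusted p = 1.32e-05). SOX18 fell, with 2.79 and 2.76 CPM in sh60 libraries and 7.55 and 5.59 CPM in LacZ libraries (log2 fold change -1.25, SE 0.183, edgeR adjusted p = 5.34e-05). Both calls held under each alternative. GATA5, the third member of the cardiac and endodermal GATA group, fell to 0.875 ± 0.050 CPM in sh60 libraries, against 1.51 ± 0.113 CPM in LacZ libraries (SD, n = 2 each; log2 fold change -0.80, edgeR adjusted p = 0.0353). GATA5 did not pass by DESeq2 (adjusted p = 0.208) or with any 1 library left out. Its edgeR adjusted p was then 0.0681 for LacZ replicate 3, 0.197 for LacZ replicate 1, 0.153 for sh60 replicate 2 and 0.0793 for sh60 replicate 1. GATA2, GATA3, FOXA3 and HNF4G did not pass and GATA1 had 0 counts, so of 8 relatives 1 rose, 2 fell, 4 did not pass and 1 was not tested, beside 15.8% higher and 13.0% lower over all tested genes. Their median log2 fold change was -0.15 over the 7 tested, beside -0.0042 over all tested genes.

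**Figure D3:**
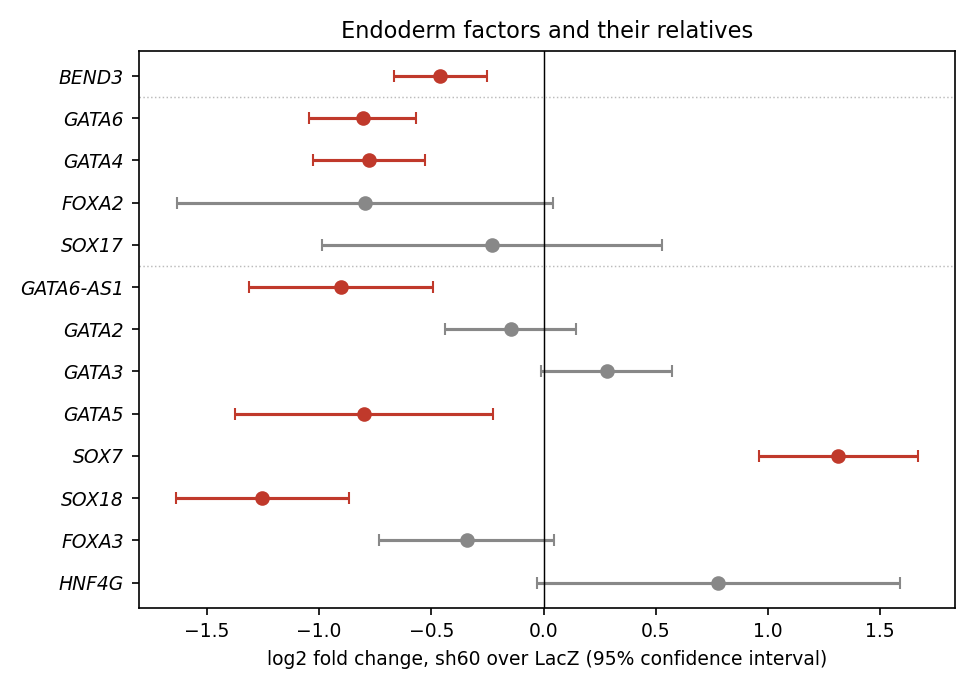
Log2 fold change of sh60 over LacZ with its 95% confidence interval for BEND3, the 4 tested endoderm factors, GATA6-AS1 and 7 tested relatives; red marks an edgeR adjusted p under 0.05. GATA6, GATA4 and GATA6-AS1 lie between -0.91 and -0.77, and SOX7 and SOX18 lie on opposite sides of 0.

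The surroundings of the GATA pair on the chromosome were mixed. GATA6-AS1 (chromosome 18, 19746859 to 19748929, minus strand) starts 468 bases from the start of GATA6 on the opposite strand, shares no exon with it and was counted by strand. It fell to 2.03 and 2.72 CPM in sh60 libraries, against 4.68 and 4.26 CPM in LacZ libraries (log2 fold change -0.90, SE 0.195, edgeR adjusted p = 0.00191), under each alternative. There were 13.3 and 9.17 counts of GATA6 to 1 of GATA6-AS1 in sh60 replicates 1 and 2, and 10.7 and 9.51 in LacZ replicates 1 and 3, so these ratios overlapped between the groups. Of the 5 noncoding RNAs listed beside the factors, GATA6-AS1 was the only one tested. HNF4A-AS1 and LINC00208 had 0 counts, LINC00261 had few, and FOXA1-AS1 had no entry by that symbol among the counted genes. The next tested gene on the other side of GATA6, RBBP8, lies 730803 bases away, averaged 78.6 CPM in sh60 libraries and 71.9 CPM in LacZ libraries and did not pass (edgeR adjusted p = 0.352). Next to GATA4 the 2 neighbours went opposite ways. C8orf49, which begins 1253 bases after GATA4 on the same strand, had 2 and 6 counts in sh60 libraries and 19 and 14 counts in LacZ libraries (log2 fold change -2.15, SE 0.572, edgeR adjusted p = 0.00845). With sh60 replicate 1 left out C8orf49 did not pass (edgeR adjusted p = 0.0637), DESeq2 gave it no adjusted p, and the stricter filter on low counts left it untested. FAM167A, 210151 bases before GATA4, rose to 15.8 and 16.1 CPM in sh60 libraries, against 12.3 and 12.2 CPM in LacZ libraries (log2 fold change 0.38, edgeR adjusted p = 0.0203). FAM167A did not pass with either LacZ library left out (edgeR adjusted p = 0.152 for replicate 3 and 0.128 for replicate 1). The nearest tested genes on both sides of the other 5 factors, MRPL15 and RP1 for SOX17, MIPOL1 and SSTR1 for FOXA1, PAX1 and THBD for FOXA2, FITM2 and TTPAL for HNF4A, and KIF11 and EXOC6 for HHEX, did not pass.

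Over the 4 libraries the profile of GATA6 was closest to those of STAC2, HVCN1 and KDR, which encodes a VEGF receptor, with root mean square differences of centred log2 CPM of 0.0198, 0.0235 and 0.0412. The median over all tested genes was 0.432. KDR measured 16.4 and 14.5 CPM in sh60 libraries and 31.0 and 25.3 CPM in LacZ libraries. GATA4 was closest to CKMT1A, LRRC9 and UBA7, with differences of 0.0099, 0.0251 and 0.0260, against a median of 0.416. CKMT1A has a near-identical copy and its count is uncertain. These 3 genes and STAC2 and HVCN1 averaged under 3.5 CPM in either group, and with 4 libraries likeness is a description only. GATA4 itself ranked 83 in closeness to GATA6 among all tested genes, with a difference of 0.111 against the median of 0.432.

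Several genes that act before the 7 factors had larger fold changes than the GATA pair. Of 13 listed genes of mesendoderm and definitive endoderm, 5 fell, 2 rose, 5 did not pass and 1 was not tested. Over all tested genes 13.0% fell and 15.8% rose. The median log2 fold change was -0.026 over the 12 tested. MIXL1, a homeobox factor of the primitive streak, averaged 180.9 ± 5.37 CPM in sh60 libraries and 544.2 ± 21.7 CPM in LacZ libraries (SD, n = 2 each; log2 fold change -1.59, edgeR adjusted p = 2.24e-09). EOMES, the T-box factor that switches on endoderm genes, averaged 148.0 ± 7.09 CPM in sh60 libraries and 419.0 ± 24.8 CPM in LacZ libraries (SD, n = 2 each; edgeR adjusted p = 2.82e-09). DKK1, a secreted WNT antagonist, fell as well (log2 fold change -0.90). OTX2, a homeobox factor of anterior endoderm and neuroectoderm, rose to 57.5 ± 0.372 CPM in sh60 libraries, against 29.2 ± 5.46 CPM in LacZ libraries (SD, n = 2 each; log2 fold change 0.97). In edgeR's fit all 4 of these passed with each library left out in turn.

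The NODAL pathway, whose signal induces endoderm, had 5 genes lower, 3 higher, 6 that did not pass and 2 not tested among 16, beside 13.0% lower and 15.8% higher over all tested genes. FOXH1, the forkhead partner of SMAD2 at NODAL targets, averaged 28.6 ± 4.35 CPM in sh60 libraries and 63.5 ± 4.18 CPM in LacZ libraries (SD, n = 2 each; log2 fold change -1.15, edgeR adjusted p = 6.34e-07). The ligand genes NODAL and GDF3 fell too, by 0.76 and 0.54 on the log2 scale, and so did the coreceptor gene TDGF1 (-0.49). The median log2 fold change of the 14 tested was -0.16. The count depended on which libraries were used. Without LacZ replicate 3 it was 3 lower and 0 higher, with TDGF1 no longer called (edgeR adjusted p = 0.0571), without LacZ replicate 1 it was 4 lower and 1 higher, and without sh60 replicate 1 it was 8 lower and 4 higher.

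Factors of the gut tube and its organs follow the 7 genes in development. Of 16 listed 3 fell, 0 rose, 10 did not pass and 3 were not tested, where 13.0% of all tested genes fell and 15.8% rose. No gene of this list was higher at an unadjusted p of 0.05 in edgeR's test, and DESeq2 and limma-voom also called 0 higher. DESeq2 gave an adjusted p to 12 of the 13 tested. CDX1 and CDX2, homeobox factors of the hindgut, fell by 1.60 and 1.82 on the log2 scale, and TBX3, a T-box factor, by 0.62. CDX2 averaged 6.76 ± 0.495 CPM in sh60 libraries and 23.9 ± 6.64 CPM in LacZ libraries (SD, n = 2 each). The median log2 fold change of the 13 tested was -0.13. Among 18 secreted products of liver and yolk sac, 10 were not tested and 0 of the other 8 passed edgeR's test. At an unadjusted p of 0.05 4 of these were higher and 1 lower, and DESeq2 and limma-voom called 0. DESeq2 gave an adjusted p to only 5 of the 8, and none to AFP. AFP, the fetal serum protein of yolk sac and liver, measured 0.393 ± 0.025 CPM in sh60 libraries and 0.162 ± 0.040 CPM in LacZ libraries (SD, n = 2 each; log2 fold change 1.22, edgeR adjusted p = 0.0907). APOE, a lipid carrier that many cell types make, measured 308.6 ± 33.8 CPM in sh60 libraries and 265.4 ± 4.85 CPM in LacZ libraries (SD, n = 2 each; edgeR adjusted p = 0.0676). The median of the 8 was 0.30.

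Genes of extraembryonic endoderm, which in the mouse include matrix genes that rise after GATA6 is switched on, moved both ways. Of 18, 6 rose, 5 fell, 5 did not pass and 2 were not tested, where 15.8% of all tested genes rose and 13.0% fell. Their median log2 fold change was 0.15. COL4A2 and COL4A1, the paired basement membrane collagens, rose to 443.9 ± 11.1 and 396.5 ± 5.78 CPM in sh60 libraries, against 196.0 ± 16.5 and 241.2 ± 24.9 CPM in LacZ libraries (SD, n = 2 each), log2 fold changes of 1.18 and 0.72. PTH1R, a hormone receptor of parietal endoderm, and BMP2, a secreted ligand, fell by 0.92 and 0.89 on the log2 scale. Without LacZ replicate 3, 3 rose and 2 fell. Many of these genes are also expressed in fibroblasts. The fibroblast genes COL1A1, COL1A2 and LUM rose with the collagens, by 2.45, 2.13 and 1.61 on the log2 scale, while THY1 fell by 0.34. COL3A1, PDGFRB and DCN of the fibroblast list did not pass (log2 fold changes -0.43, -0.21 and 0.31). The part of fibroblast expression in the collagen values was not tested.

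Of 12 cofactors that GATA, FOXA, HHEX and HNF4A proteins are known to work with, 6 fell, 0 rose, 5 did not pass and NR0B2 had 0 counts, where 13.0% of all tested genes fell and 15.8% rose. TLE3, a Groucho corepressor, averaged 142.2 ± 7.74 CPM in sh60 libraries and 206.6 ± 7.79 CPM in LacZ libraries (SD, n = 2 each; log2 fold change -0.54, edgeR adjusted p = 9.04e-05). SALL4, TLE4 and NCOA1 had smaller falls, of 0.31, 0.32 and 0.29 on the log2 scale. Without LacZ replicate 1 or without LacZ replicate 3 a single cofactor passed, TLE3 remaining called. With sh60 replicate 1 left out 7 fell and 1 rose. ZFPM1 and ZFPM2, the FOG proteins that bind GATA factors directly, did not pass. No cofactor was higher at an unadjusted p of 0.05 by edgeR, and 0 were called higher by DESeq2 or limma-voom. The median log2 fold change of the 11 tested was -0.23.

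**Figure D4:**
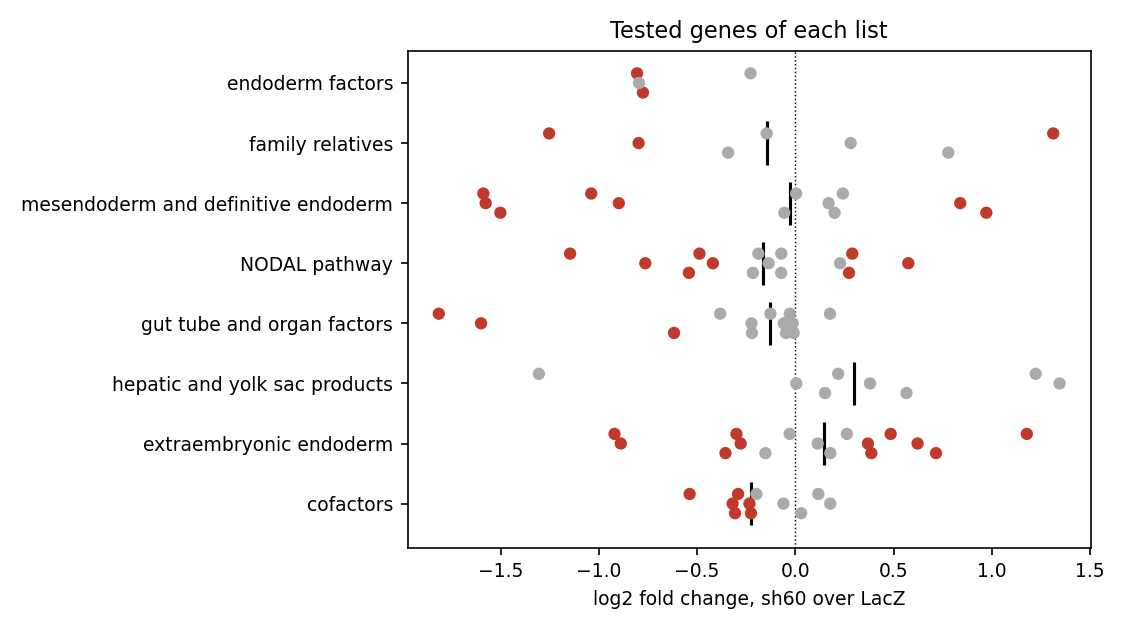
Log2 fold change of sh60 over LacZ for each tested gene of the endoderm factors and of 7 related lists, with a point per gene (red where the edgeR adjusted p is under 0.05) and a black bar at the median of each related list; vertical offsets within a row only separate points. GATA6 and GATA4 sit near -0.8, while genes of the mesendoderm list reach -1.59 on one side and 0.97 on the other.

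The values of the 4 tested factors under the other ways of processing are plotted beside the fit reported here. GATA6 and GATA4 stayed on the same side of 0, and their range was set by which library was left out. FOXA2 ran between -1.24 and -0.52 and was not called in any of the 12 alternatives that tested it, and SOX17 ran between -0.67 and 0.61.

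**Figure D5:**
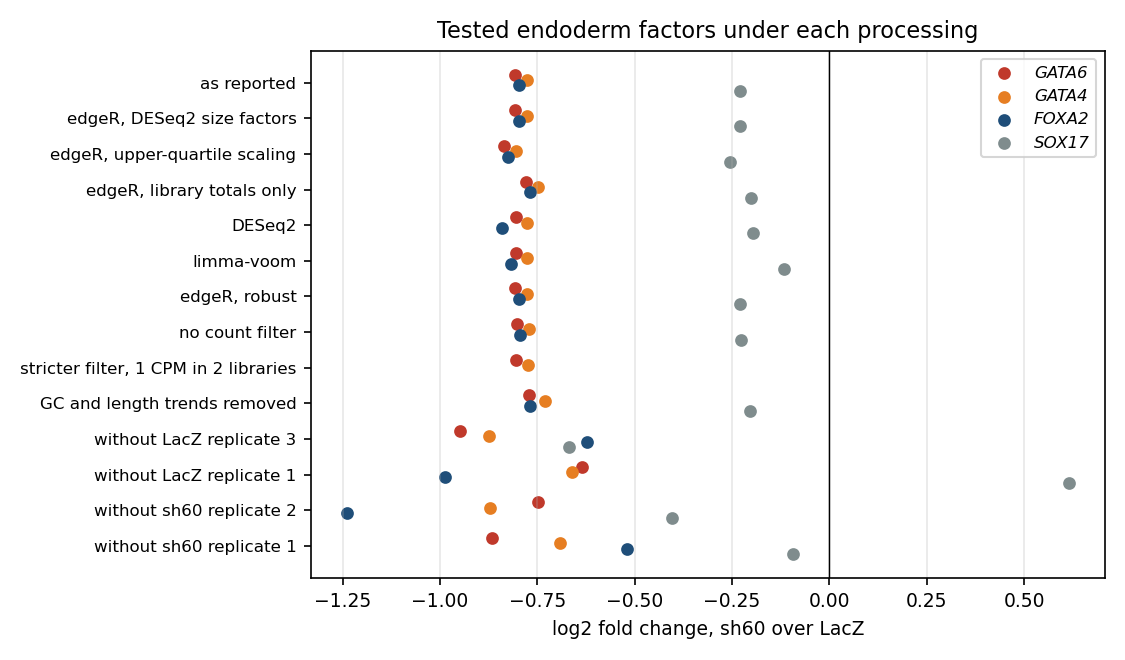
Log2 fold change of sh60 over LacZ for GATA6, GATA4, FOXA2 and SOX17 under each alternative, a point per gene and setting; FOXA2 and SOX17 have no value under the stricter filter. Changing the scaling or tool moved GATA6 and GATA4 little, while SOX17 stood at 0.61 with LacZ replicate 1 left out and at -0.23 with all libraries.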

How the data were processed

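Single-end mRNA libraries, 2 labelled sh60 and 2 labelled LacZ, were made with a stranded kit, per the labels' protocols. The values are raw counts of reads per gene, as deposited by the authors, 1 table per library. The submitters' processing notes name STAR 2.7.6a and hg19, and reads were counted over exons with featureCounts of Subread 2.0.0 at strand setting 2, per the file headers. No option for reads that map to several places appears in that command.

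Here edgeR 4.0.16 (R 4.3.3) was run on the counts: TMM scaling, filterByExpr, glmQLFit and glmQLFTest with group as the only term, all 4 libraries, and Benjamini-Hochberg adjustment over 16040 genes at a threshold of 0.05. The script was tested on simulated data. No pair of replicates was a copy: over genes their counts gave a chi-square of 15.8 (sh60) and 5.89 (LacZ) for each degree of freedom. Intervals are at 95% and, where said, cover counting error only. DESeq2 1.42.0, limma-voom (limma 3.58.1), other scalings and filters, a correction for GC content and length (known for 94.2% of tested genes) and leaving out each library were the alternatives.

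The 7 factors and the related lists were chosen with earlier results of these data known. All 7 are named, with BEND3. For each list the text names at most 4 called members, by p, or at most 2 if no member passed, and for each called factor the 3 genes of most similar profile and for each factor its nearest tested neighbours. Any further gene named, such as those behind small counts, was picked with its values in view. Some listed genes are counted in their lists but not reported here by name.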

Additional observations from a re-analysis of the deposited data

How the results depend on the processing

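The 2 calls among the endoderm factors, GATA6 and GATA4, held in all 13 alternatives, with edgeR, DESeq2 or limma-voom adjusted p up to 0.00168 for GATA6 and 0.00135 for GATA4. SOX17 reversed without LacZ replicate 1 (0.61) and ran from -0.67 to 0.61 as single libraries were left out; the cause was not tested. FOXA2 and SOX17 were not tested under the stricter filter, which takes genes at 1 CPM in 2 libraries. Leaving out single libraries moved the number of genes called over all tested genes (4624) between 2287 and 5486, the NODAL pathway (8) between 3 and 12, extraembryonic endoderm (11) between 5 and 11, the cofactors (6) between 1 and 8, the pluripotency genes (6) between 1 and 7, and the hepatic and yolk sac products (0) between 0 and 1. These fits leave 1 library in a group, which is assumed to vary like the others. With GC and length trends removed 5 gut tube and organ factors were called, against 3, and 1 hepatic or yolk sac product, as with library totals only and with no count filter. In the fit with no count filter, FOXA1, HNF4A and HHEX did not pass (edgeR adjusted p = 0.684, 0.409 and 0.734). No paired analysis was possible because the groups share a single replicate number. FOXA2, SOX17 and the 3 near-silent factors had 58 counts or fewer in each library, which limits their precision; the 58 and 17 counts of SOX17 in LacZ replicates 1 and 3 also differ between replicates.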

Other observations

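Among listed genes with too few counts for a test, chosen after their values were seen, SERPINA1, a protease inhibitor made by liver, had 9 and 8 counts in sh60 replicates 1 and 2, against 2 and 2 counts in LacZ replicates 1 and 3. ALB, the main serum protein of liver, had 1 and 3 counts in sh60 libraries and 1 and 0 counts in LacZ libraries, and TTR, a thyroid hormone carrier of yolk sac and liver, had 0 in all 4. These genes were not tested in the fit reported here. The fit with no count filter took in SERPINA1 and ALB, and their results in it are not reported here. It called 1 hepatic or yolk sac product higher, which is not named here.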
